A study of Homo sapiens with 12 samples.

Results

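This report describes 128 genes that were higher in MRG15 knockout (KO) cells than in control cells before reprogramming, and lower in KO cells than in control cells on day 6 of reprogramming. They were chosen from the 60660 gene identifiers of the deposited expression table by their measured values. A gene was a member when its KO minus control difference was at least 0.25 on day 0 and at most -0.25 on day 6, on the log2 scale of variance-stabilised (VST) values. Its mean over the 12 libraries also had to be at least 7, which 11825 genes reached, and the 3 KO and 3 control libraries of a day must not overlap on either day. Of the 128 members, 124 were protein coding.

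The cells were dH1f, a line of fibroblasts derived from the human embryonic stem cell line H1. They had received the lentiCRISPRv2 vector, which delivers Cas9 with a guide RNA, carrying either a guide against MRG15 (KO, gene MORF4L1) or a non-targeting guide (NT). RNA of each genotype was sequenced before OSKM (day 0) and on day 6 after it, in 3 libraries per group. OSKM stands for OCT4, SOX2, KLF4 and MYC, the factors that turn body cells into induced pluripotent cells. All KO libraries carry the same guide code in the labels, no rescue and no day 6 culture without OSKM is among the samples, and the labels do not say whether replicates were separate cultures. Loss of MRG15 and any other trait of that KO population cannot be told apart, nor can OSKM and time in culture. The p-values reflect the spread among these libraries, which may be technical.

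MRG15 is a chromodomain protein that binds a methyl mark on the histones of transcribed genes and works in complexes that add or remove histone acetyl groups. In reprogramming, fibroblasts first lose the genes of their own cell type and then switch on epithelial and pluripotency genes. The signalling pathways described below, such as those of BMP, EGF and lysophosphatidic acid, act between such cells through secreted ligands and surface receptors.

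The guide's target was checked first. MORF4L1 had 1292, 1301 and 1421 estimated normalised counts in KO against 7682, 7773 and 7863 in NT libraries on day 0, and 1059, 961 and 1040 in KO against 6709, 7116 and 7043 in NT libraries on day 6. Levels here and below are normalised counts estimated from the deposited values, which sum to 18.0 to 23.7 M per library, and every difference is in VST units (log2). No library stood apart from its group, since the first principal component (87.1% of the variance) separated the days and the second (4.83%) separated KO from NT. Summed fibroblast markers, 8 genes from COL1A1 to LUM, were lower in KO cells on both days, at 863071 to 873252 in KO against 1169563 to 1249130 in NT libraries on day 0 and at 200123 to 213572 in KO against 570421 to 605407 in NT libraries on day 6. DCN among them is a member and carries no test, and of the other 7 all passed the test as lower in KO cells on day 6, while on day 0 4 were lower and 1 was higher. Of all genes tested 19.2% were lower on day 6, and 10.7% were lower and 7.42% higher on day 0. The largest parts of the fibroblast sum on day 0 came from COL1A1 (mean of 396084 in KO against 593718 in NT) and COL1A2 (232578 against 337735). Day 0 means of COL3A1, PDGFRB and THY1 were also lower in KO cells. Those of VIM (132558 against 121114), LUM (4950 against 4433) and DCN (1497 against 902) were higher. Summed pluripotent markers (7 genes) reached 20415 to 20978 in KO against 13545 to 14095 in NT libraries on day 6. The largest parts came from POU5F1, the gene of OCT4 (mean of 6211 against 4018), and SOX2 (8092 against 5216). Both are OSKM factors, and whether reads of the delivered factors add to them was not tested. By limma 5 of the 7 were higher in KO cells on day 6 (17.7% of all genes tested), while DPPA4 had 1244 against 1271. Summed smooth muscle markers (6 genes) stood at 4012 to 4506 in KO against 17771 to 19393 in NT libraries on that day. The part of such shifts in the members' lower day 6 values was not tested, and in bulk RNA fewer cells of a type and less RNA per cell cannot be told apart.

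Among the 128 members the KO minus NT difference ran from 0.25 to 1.59 on day 0, with a median of 0.4, and from -1.49 to -0.25 on day 6, with a median of -0.48. As ratios of mean estimated counts, KO cells had 1.2 to 4.42 times the NT level on day 0 (median 1.37) and 0.27 to 0.83 times on day 6 (median 0.661). These values chose the members and carry no test. KO libraries lay all above NT libraries on day 0 in 15.7% of the genes with a mean of at least 7, and all below them on day 6 in 26.4%. The difference was the larger in size on day 6 in 72 members. Only 21 members had differences of at least 0.5 in size on both days. Across the members, the signed differences on the 2 days were nearly unrelated (Pearson r = -0.11, n = 128 genes that share the same libraries, a description). The members nearest the limit inside it were NR1D2, MAML2, SMAD9 and EFNA3, whose smaller difference was 0.2512, 0.2534, 0.2537 and 0.2550. Just outside lay ELK3 at 0.2490, NRP2 at 0.2480, FZD1 at 0.2445 and PHLDA1 at 0.2436.

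**Figure D1:**
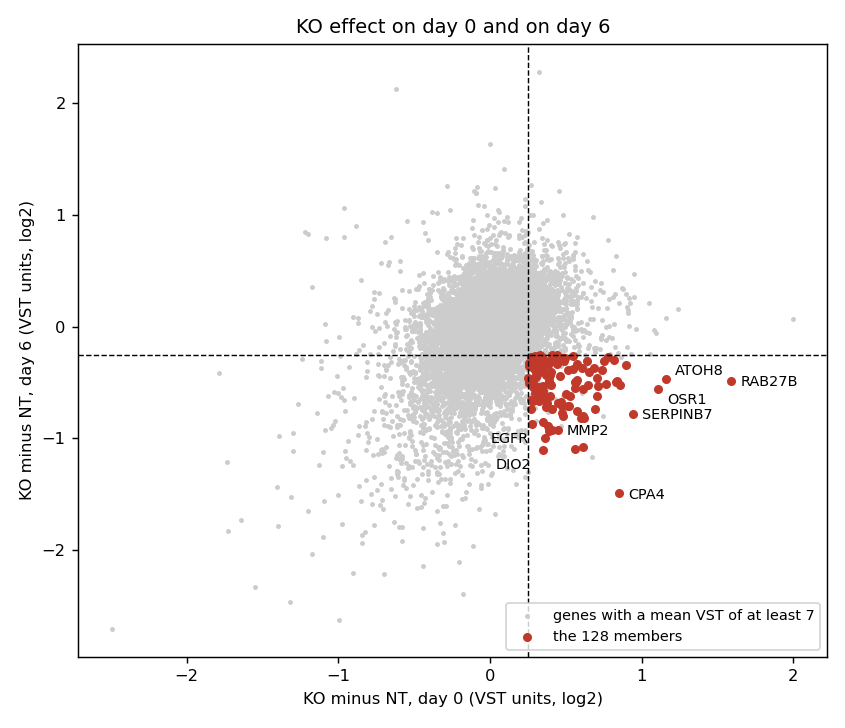
KO minus NT difference on day 6 (vertical axis) against the difference on day 0 (horizontal axis), both in VST units (log2), for each gene with a mean VST of at least 7 (grey) and the 128 members (red). Dashed lines mark the thresholds of 0.25 and -0.25; the members lie at the lower right by construction, with RAB27B at 1.59 farthest right and CPA4 at -1.49 lowest.

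Some members encode proteases, protease inhibitors and clotting regulators, a grouping made after their names were known. By the smaller of its 2 differences CPA4 stood first among the members, followed by SERPINB7, FHOD3, a formin that builds actin filaments, and G0S2. CPA4 (chromosome 7, 130293134 to 130324180, plus strand), a secreted carboxypeptidase, had 8067, 7603 and 8534 estimated counts in KO against 4457, 3919 and 5037 in NT libraries on day 0. On day 6 it had 1159, 1254 and 1116 in KO against 3256, 3502 and 3466 in NT libraries. KO cells thus held 1.8 times the NT level before OSKM and 0.345 times on day 6, and the level changed far more between the days in KO cells (-2.72) than in NT cells (-0.38). SERPINB7 and SERPINB2 are clade B serpins, intracellular or secreted inhibitors of serine proteases, and SERPINB2 inhibits the plasminogen activators. SERPINB7 had 5411, 5433 and 5500 in KO against 2739, 2867 and 2826 in NT libraries on day 0. It had 286, 259 and 229 in KO against 472, 497 and 469 in NT libraries on day 6 (ratios of 1.94 and 0.538). Both genotypes had lost most of the transcript by day 6. SERPINB2 had 510, 464 and 455 in KO against 286, 308 and 282 in NT libraries on day 0, and 27.7, 28.6 and 27.9 in KO against 97.8, 70.5 and 70.1 in NT libraries on day 6. The other 4 clade B serpins tested were no members, with differences of -0.37 to 0.04 on day 0 and -0.64 to 0.49 on day 6.

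TFPI2, a Kunitz-type inhibitor of plasmin and trypsin in the matrix, had 2451, 2571 and 2605 in KO against 1498, 1355 and 1280 in NT libraries on day 0. On day 6 it had 1611, 1341 and 1675 in KO against 2221, 2269 and 2201 in NT libraries. The genotypes changed places here, with KO cells on day 6 close to NT cells on day 0. THBD and PROCR, the cell surface receptors that turn thrombin into an activator of protein C and bind protein C, were both members (0.39 and -0.45, then 0.34 and -0.30, day 0 and day 6). Of the 12 genes of clotting and fibrinolysis looked at after the members were known, 4 were members. The plasminogen activators were not, since PLAU (-0.33 and -1.76) and PLAT (-0.19 and -1.0) had negative differences on both days. MMP2, a gelatinase, had 51518, 52545 and 51848 in KO against 39770, 38044 and 36616 in NT libraries on day 0 and 8741, 7881 and 9016 in KO against 16178, 16412 and 16128 in NT libraries on day 6. MME, the membrane peptidase neprilysin, stood at 0.38 and -0.89. The 26 other tested genes of matrix proteases and inhibitors did not share the pattern: 3 were higher and 12 lower in KO cells on day 0, and 0 were higher and 19 lower on day 6. Across all 14858 genes tested, 7.42% were higher and 10.7% lower in KO cells on day 0, and 17.7% were higher and 19.2% lower on day 6 (limma, two-sided, Benjamini-Hochberg adjusted p under 0.05 over all genes tested).

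**Figure D2:**
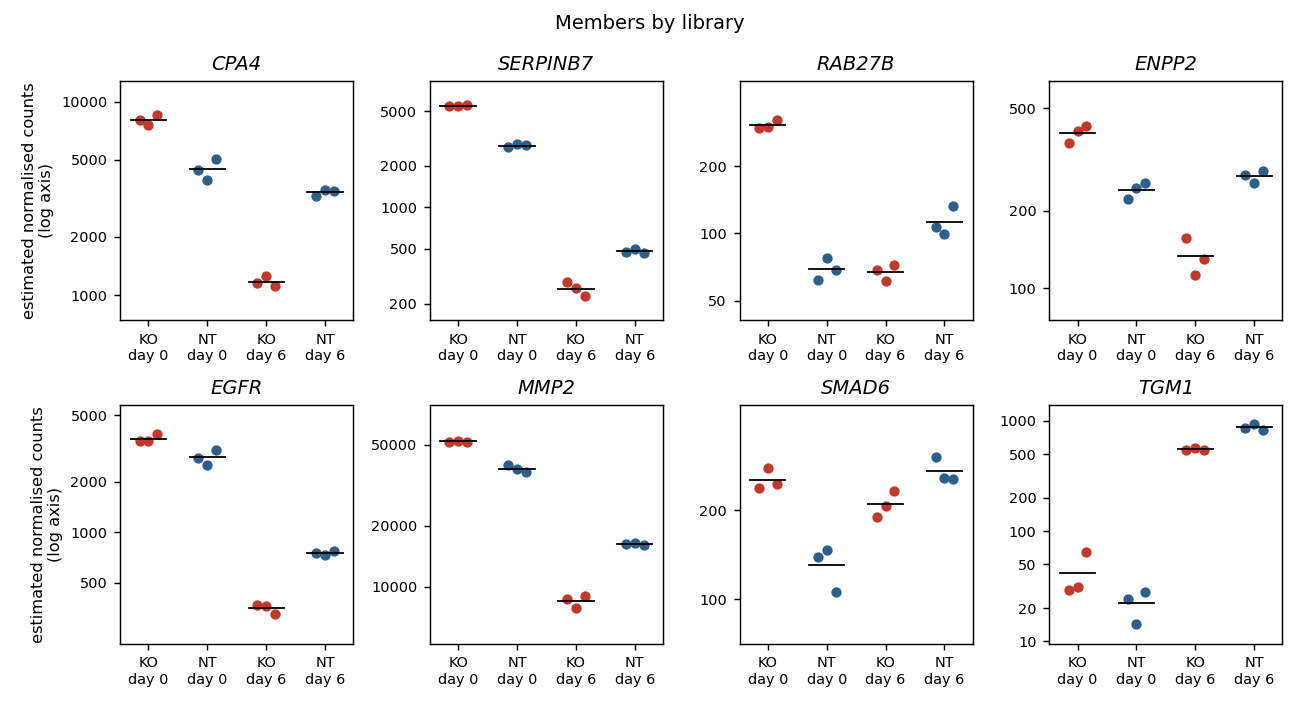
Estimated normalised counts of 8 members in each library (points, log axis) with the group mean (line), for KO and NT on day 0 and on day 6. In each panel the KO points lie above the NT points on day 0 and below them on day 6, as the choice of members requires; CPA4 had 7603 to 8534 in KO cells on day 0 and 1116 to 1254 on day 6.

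Promoter sequence was looked at for a site of AP-1, the dimer of FOS and JUN family proteins that growth factor signals activate, because FOSL1, FOSL2 and EGFR were themselves members. A RefSeq promoter (GRCh38.p14, from 250 bases before to 50 after the start site) was at hand for 89 of 128 members (69.5%). This is under the 80% needed for a check over the members, so such a check is void and the shares are given only as a description. The palindromic 7-base motif TGANTCA occurred in 15 of the 89 (16.9%), against 6.69% of 9493 genes with a mean of at least 7 and 9.37% of all 27305 genes with a promoter. It was among 9 motifs searched on both strands. A gene with more than 1 promoter counted when any of them held the motif. The number of promoters per gene was not matched between these sets. The TATA box (TATAAA) occurred in 15.7% of the 89 against 8.01% of the 9493, and the ETS site (CCGGAAG) in 5.62% against 23.7%. The GC box (GGGCGG) occurred in 79.8% against 78.5%, the TEAD site (GGAATG) in 14.6% against 14.9% and the E-box (CACGTG) in 7.87% against 12.8%. The CCAAT box (CCAAT) occurred in 32.6% against 43.6%, the SOX site (ACAATGG) in 2.25% against 2.8% and the CHR element (TTTGAA) in 15.7% against 13.5%. A match is not a bound site. The promoters of CPA4, SERPINB2, TFPI2 and IL11 are shown because these are secreted-protein members that carry the motif near the start. They are given 5′ to 3′ on the gene's strand with the motif in capitals, for chr7:130292911-130293210 (plus), chr18:63887455-63887754 (plus), chr7:93890704-93891003 (minus) and chr19:55370414-55370713 (minus). The motif began at positions -48 and -15 from the start site in CPA4, -102 in SERPINB2, -87 in TFPI2 and -96 in IL11. Where a gene had more than 1 promoter, the first that held the motif is shown. The SERPINB2 promoter lies inside the span of its gene in GENCODE (63871692 to 63903890), not at its edge.
CPA4: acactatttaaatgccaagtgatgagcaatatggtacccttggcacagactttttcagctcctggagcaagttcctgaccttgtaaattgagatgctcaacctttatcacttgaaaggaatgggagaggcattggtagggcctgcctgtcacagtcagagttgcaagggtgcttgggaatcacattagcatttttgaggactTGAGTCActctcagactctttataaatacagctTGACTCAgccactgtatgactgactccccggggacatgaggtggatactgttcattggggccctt
SERPINB2: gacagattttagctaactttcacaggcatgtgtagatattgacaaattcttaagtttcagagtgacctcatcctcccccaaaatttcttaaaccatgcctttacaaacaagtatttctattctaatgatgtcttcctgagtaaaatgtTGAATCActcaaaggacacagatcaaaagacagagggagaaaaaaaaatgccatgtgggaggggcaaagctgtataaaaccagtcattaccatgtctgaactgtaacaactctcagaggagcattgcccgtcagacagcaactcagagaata
TFPI2: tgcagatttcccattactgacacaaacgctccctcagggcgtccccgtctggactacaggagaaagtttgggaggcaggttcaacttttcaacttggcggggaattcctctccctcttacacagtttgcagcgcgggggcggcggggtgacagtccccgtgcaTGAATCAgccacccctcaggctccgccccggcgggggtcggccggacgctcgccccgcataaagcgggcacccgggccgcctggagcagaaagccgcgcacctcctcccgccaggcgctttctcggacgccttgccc
IL11: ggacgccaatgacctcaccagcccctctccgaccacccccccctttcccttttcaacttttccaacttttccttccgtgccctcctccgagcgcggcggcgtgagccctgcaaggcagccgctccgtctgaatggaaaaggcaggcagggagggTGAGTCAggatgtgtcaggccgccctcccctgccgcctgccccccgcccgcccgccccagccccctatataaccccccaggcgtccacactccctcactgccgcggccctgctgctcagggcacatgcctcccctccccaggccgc

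FOSL1 and FOSL2, FOS-related subunits of AP-1, were the members of the AP-1 family. FOSL1 had 1763, 1545 and 1679 estimated counts in KO against 1281, 1362 and 1308 in NT libraries on day 0, and 146, 179 and 170 in KO against 315, 280 and 278 in NT libraries on day 6. FOSL2 had 5631, 5494 and 5598 in KO against 4082, 4261 and 4391 in NT libraries on day 0, and 1720, 2053 and 1881 in KO against 2716, 2565 and 2675 in NT libraries on day 6. The KO excess before OSKM was of like size in both genes, and the day 6 deficit was the larger in FOSL1. Of the other 5 family genes, JUN leaned the same way (0.22 and -0.52) but missed the threshold on day 0, and JUNB (-0.19 and -0.46), JUND (-0.02 and -0.11), FOS (-0.38 and -0.24) and FOSB (-0.10 and 0.03) had no positive difference on day 0. This group was drawn up after the members were known.

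EGFR, the receptor of epidermal growth factor, had 3496, 3487 and 3838 in KO against 2768, 2528 and 3092 in NT libraries on day 0, and 367, 365 and 325 in KO against 754, 737 and 778 in NT libraries on day 6. KO cells had 1.29 times the NT level before OSKM and 0.466 times on day 6. IRS1, the docking protein of the insulin and IGF receptors, stood at 0.29 and -0.48, RIN1, a RAS effector, at 0.57 and -0.34, and IL17RD, an inhibitor of FGF signalling, at 0.56 and -0.55. In the list of FGF, EGF and ERK feedback genes EGFR and FOSL1 were members. Of its 28 other tested genes 4 were higher and 6 lower in KO cells on day 0, and 4 were higher and 11 lower on day 6. The shares over all genes tested were 7.42% higher and 10.7% lower on day 0, and 17.7% higher and 19.2% lower on day 6. ETV1, ETV4, FGF18 and PHLDA1 were the 4 higher on day 0 (limma, adjusted p = 4.52e-05, 0.00471, 0.04 and 2.99e-06), and of these only PHLDA1 was lower on day 6 (-0.24, adjusted p = 4.68e-04).

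Genes of the BMP pathway gave more members than any other list. BMP ligands bind serine kinase receptors that phosphorylate SMAD proteins, and these switch on ID genes and their own inhibitors, with known roles in bone and skin and, in mouse cells, in the early epithelial phase of reprogramming. Of 23 tested genes 5 were members: the ligand GDF5, the receptor SMAD SMAD9, the inhibitor SMAD6, the target ID3 and the target transcription factor ATOH8. Among all 14858 genes tested 128 were members. ATOH8 had 537, 609 and 494 in KO against 238, 192 and 214 in NT libraries on day 0, and 160, 142 and 137 in KO against 253, 221 and 191 in NT libraries on day 6. SMAD6 had 237, 278 and 245 in KO against 139, 147 and 106 in NT libraries on day 0, and 190, 206 and 232 in KO against 303, 256 and 255 in NT libraries on day 6. For both the KO excess before OSKM (ratios of 2.55 and 1.94) was larger on the log2 scale than the deficit on day 6 (0.659 and 0.772). SMAD6 lies on chromosome 15 with MORF4L1, where the median KO minus NT difference was -0.16 on day 0 and -0.09 on day 6. SMAD9 differed by 0.41 and -0.25, GDF5 by 0.38 and -0.34 and ID3 by 0.28 and -0.36. The 18 other tested genes of the list had 3 higher and 2 lower on day 0, and 0 higher and 9 lower on day 6. Over all genes tested 7.42% were higher and 10.7% lower on day 0, and 17.7% higher and 19.2% lower on day 6. The 3 higher were ID1 (0.90, SE 0.079, adjusted p = 2.61e-06), BMP2 (0.52, SE 0.100, adjusted p = 0.00252) and BMP4 (0.45, SE 0.091, adjusted p = 0.00319), by limma. Their day 6 values of -0.18, -0.17 and -0.22 did not pass the test (adjusted p = 0.088, 0.209 and 0.069). The BMP antagonists were among the 9 lower on day 6, with GREM1 at -1.97 (adjusted p = 8.36e-14), NOG at -0.73 (adjusted p = 6.18e-06) and CHRDL1 at -0.61 (adjusted p = 0.00136). The list was drawn up with earlier results of these data known, so its count of members is a description.

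**Figure D3:**
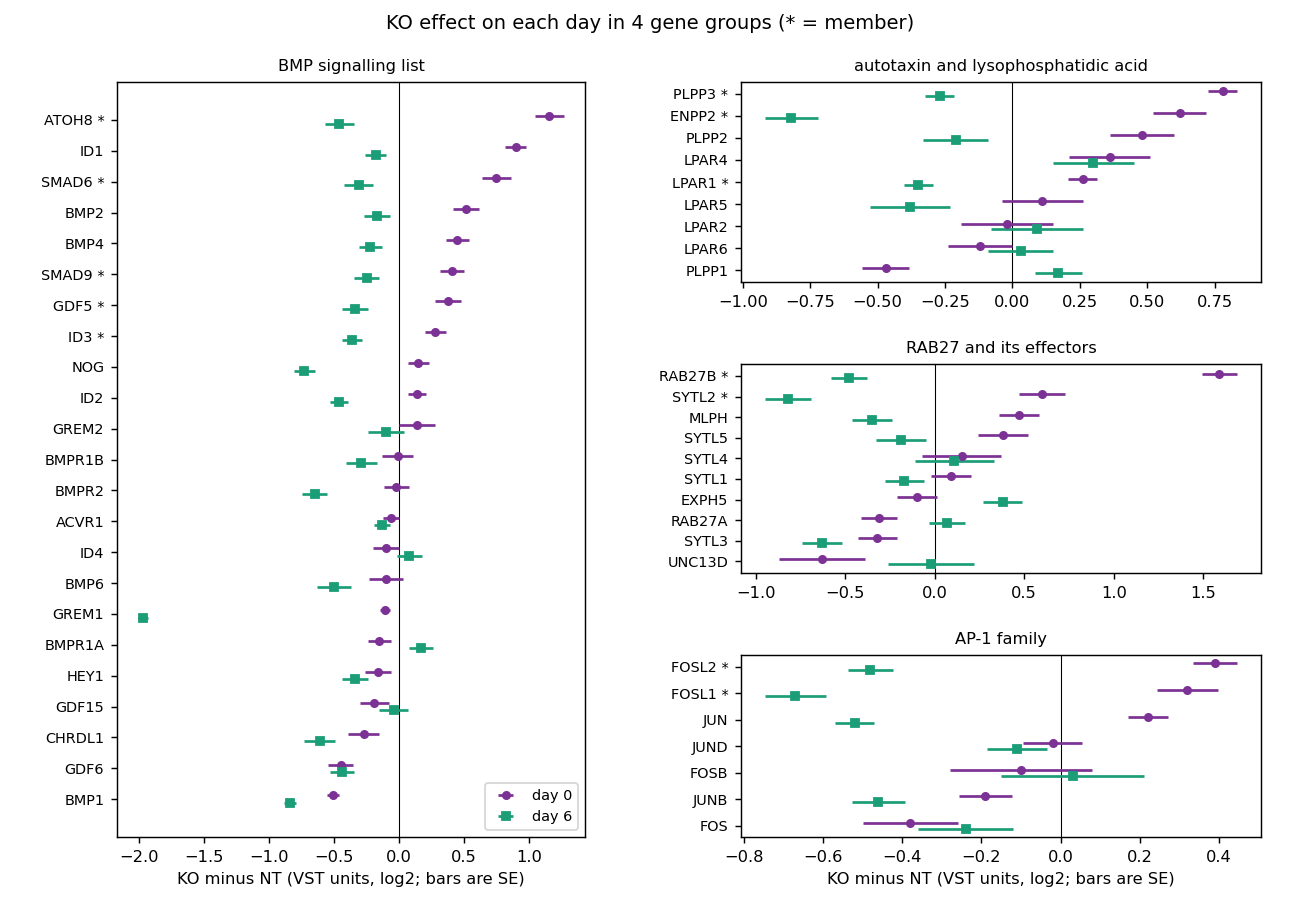
KO minus NT difference in VST units (log2) on day 0 (circles) and day 6 (squares) for the tested genes of the BMP list and of 3 families put together after the members were known. Bars are SE from the fit over 12 libraries and asterisks mark members, such as ATOH8 at 1.16 and -0.46 and RAB27B at 1.59 and -0.48.

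Genes of lysophosphatidic acid (LPA), a signalling lipid, held 3 members with different tasks. ENPP2 (autotaxin) makes LPA outside the cell, LPAR1 is its receptor on fibroblasts, and PLPP3 is a surface phosphatase that breaks LPA down. ENPP2 had 366, 407 and 426 in KO against 222, 246 and 257 in NT libraries on day 0, and 157, 113 and 130 in KO against 275, 256 and 286 in NT libraries on day 6. NT cells held about the same ENPP2 level on both days (0.14), and the crossing came from KO cells (-1.29). PLPP3 had 2967, 2981 and 2834 in KO against 1795, 1626 and 1628 in NT libraries on day 0, and 1389, 1438 and 1417 in KO against 1821, 1662 and 1675 in NT libraries on day 6. LPAR1 had ratios of 1.2 on day 0 and 0.775 on day 6. Of the other 6 tested genes of this family, PLPP2 leaned the same way (0.48 and -0.21) and PLPP1 the opposite way (-0.47 and 0.17). Both are outside the members, and the family was chosen after values were seen.

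RAB27B, a GTPase that docks secretory vesicles and exosomes at the plasma membrane, had the largest day 0 difference of any member. It had 297, 299 and 322 in KO against 61.9, 77.2 and 68.7 in NT libraries on day 0, a ratio of 4.42. On day 6 it had 68.4, 61.3 and 72.2 in KO against 107, 99.0 and 133 in NT libraries. SYTL2, a synaptotagmin-like effector that tethers RAB27 to membranes, had 959, 955 and 911 in KO against 621, 711 and 494 in NT libraries on day 0, and 98.3, 122 and 77.2 in KO against 209, 245 and 182 in NT libraries on day 6. RAB27A, the close paralog of RAB27B, showed no such pattern (-0.31 and 0.07). Among the other tested effectors MLPH came nearest (0.47 and -0.35) but its libraries overlapped on day 6, SYTL5 stood at 0.38 and -0.19, and EXPH5 (-0.10 and 0.38) and UNC13D (-0.63 and -0.02) had negative day 0 values.

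Several members encode secreted growth factors or cytokines, put together here after their names were known. VEGFA, the main angiogenic factor, had 8004, 7348 and 7813 in KO against 6163, 6203 and 6319 in NT libraries on day 0, and 1513, 1709 and 1516 in KO against 2213, 2118 and 2109 in NT libraries on day 6. Its relative PGF, placental growth factor, had 132, 128 and 140 in KO against 92.4, 93.8 and 83.8 in NT libraries on day 0, and 85.2, 83.7 and 93.4 in KO against 147, 153 and 134 in NT libraries on day 6. Averaged over genotypes VEGFA fell by 1.88 between the days (limma, adjusted p = 9.39e-16), while PGF did not pass that test (0.03, adjusted p = 0.68). IL11, a cytokine of the IL6 family made by fibroblasts, stood at 0.39 and -0.44, and PDGFC, a ligand of the PDGF receptors, at 0.33 and -0.32. GDNF, a survival factor of neurons, had 404, 464 and 398 in KO against 342, 302 and 387 in NT libraries on day 0. It was close to the detection limit on day 6, at 3.9, 3.07 and 5.04 in KO against 17.7, 15.7 and 11.1 in NT libraries. NDNF, another secreted neurotrophic factor, stood at 0.71 and -0.53. In the list of cytokines and chemokines IL11 was the member among 23 tested, and the 22 others had 2 higher and 5 lower on day 0, and 1 higher and 11 lower on day 6. For this and the next lists, the shares over all genes tested were 7.42% higher and 10.7% lower on day 0. On day 6 they were 17.7% higher and 19.2% lower. In the list of PDGF, HGF and VEGF signalling the 18 other tested genes had 4 higher and 4 lower on day 0, and 0 higher and 10 lower on day 6. NDRG1, a gene induced by low oxygen and differentiation, had 6785, 6731 and 6542 in KO against 3658, 3926 and 4186 in NT libraries on day 0, and 1052, 1271 and 1038 in KO against 1723, 1594 and 1550 in NT libraries on day 6. CA12, a carbonic anhydrase of the cell surface on chromosome 15, stood at 0.65 and -0.40. Of the other genes of the glycolysis and hypoxia list, ADM, a vasodilator peptide gene, was higher in KO cells on day 0 (0.45, adjusted p = 2.11e-04) and lower on day 6 (-0.17, adjusted p = 0.0492), while ENO2, a glycolytic enzyme gene, was higher in KO cells on day 0 (0.50, adjusted p = 6.87e-05) and on day 6 (0.67, adjusted p = 1.18e-06) by limma. Of the 24 others in that list 7 were higher and 4 lower on day 0, and 9 were higher and 5 lower on day 6.

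Transcription factors of mesenchymal cells among the members were OSR1, RUNX2 and EBF2. OSR1, a zinc finger factor known from connective tissue progenitors of mouse embryos, had 296, 301 and 344 in KO against 148, 109 and 101 in NT libraries on day 0, and 12.7, 22.9 and 6.73 in KO against 35.8, 28.5 and 42.0 in NT libraries on day 6. Its day 6 libraries held few counts, and the lack of overlap between KO and NT libraries is required by the choice of members. RUNX2, the bone master regulator, differed by 0.37 and -0.32 and EBF2, a factor of fat progenitors in mice, by 0.29 and -0.59. The 29 other tested genes of that list had 3 higher (TBX2, TBX3 and TBX15) and 4 lower on day 0, and 2 higher and 15 lower on day 6. Across all genes tested the shares were 7.42% higher and 10.7% lower on day 0, and 17.7% higher and 19.2% lower on day 6. Further factors named after their values were seen were PRDM1, a repressor (0.68 and -0.37), BNC2, a zinc finger protein of dermal fibroblasts (0.27 and -0.27), the cell cycle repressor E2F7 (0.56 and -0.49), the dioxin receptor repressor AHRR (0.41 and -0.92) and the clock repressor NR1D2 (0.33 and -0.25). AXIN2, a feedback inhibitor and target of Wnt signalling, stood at 0.64 and -0.31. The 27 other tested Wnt genes had 6 higher and 4 lower on day 0, and 3 higher and 9 lower on day 6. FZD1 was the gene both higher on day 0 (0.24, adjusted p = 0.0197) and lower on day 6 (-0.33, adjusted p = 0.00129) by limma.

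Of surface receptors, matrix and guidance genes, 4 receptors coupled to G proteins or of that fold came from the GPCR list: the bradykinin receptor BDKRB2 (0.57 and -0.48), the retinoic acid-induced GPRC5A (0.35 and -0.86), the adrenergic receptor ADRA2A (0.28 and -0.36) and LPAR1 (0.26 and -0.35). That list had 28 tested genes. The 24 that were not members had 5 higher and 8 lower on day 0, and 3 higher and 9 lower on day 6. BDKRB1, the inducible bradykinin receptor, was not a member but was higher on day 0 (0.52, adjusted p = 0.00359) and lower on day 6 (-0.44, adjusted p = 0.00398) by limma. ADGRG1, an adhesion receptor, had 1092, 1325 and 1301 in KO against 931, 713 and 833 in NT libraries on day 0, and 220, 270 and 206 in KO against 487, 593 and 588 in NT libraries on day 6. The guidance ligands SEMA3C (0.32 and -0.55), SEMA5A (0.37 and -0.68) and EFNA3 (0.44 and -0.25) were members. SEMA3C and SEMA5A came from the list of axon guidance and adhesion genes. Its 29 other tested genes had 3 higher and 11 lower on day 0, and 4 higher and 17 lower on day 6. DCN, decorin, a small proteoglycan of the collagen matrix, had 1410, 1469 and 1610 in KO against 966, 998 and 743 in NT libraries on day 0, and 778, 728 and 796 in KO against 1081, 1110 and 1028 in NT libraries on day 6. It was the only member in its list of proteoglycans. The 24 other tested genes of that list had 4 higher and 12 lower on day 0, and 0 higher and 17 lower on day 6. Of these, only CD44 was both higher on day 0 (0.23, adjusted p = 0.0265) and lower on day 6 (-0.78, adjusted p = 4.16e-07) by limma. No collagen, no matrix glycoprotein of the list and no contractile gene was a member. Of 26 collagens 0 were higher and 14 lower on day 0, and 0 were higher and 21 lower on day 6. All genes tested had 7.42% higher and 10.7% lower on day 0, and 17.7% higher and 19.2% lower on day 6. LAMA1, a laminin chain, stood at 0.49 and -0.31. The 25 other tested genes of integrins and laminins had 1 higher and 12 lower on day 0, and 2 higher and 16 lower on day 6. The complement gene C3 rested on an uneven group, with 465, 202 and 189 in KO against 109, 108 and 165 in NT libraries on day 0. G0S2, an inhibitor of fat breakdown, had 523, 624 and 531 in KO against 333, 344 and 359 in NT libraries on day 0, and 198, 199 and 177 in KO against 411, 518 and 459 in NT libraries on day 6. Of the 38 lists, covering 940 genes, 20 held a member and 18 held none, and 35 of the 128 members were in a list. Both cell cycle lists, the interferon list, the unfolded protein list and the pluripotency list were among those with none.

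Day 6 against day 0, averaged over both genotypes, was the comparison that the choice of members did not use, because it is independent of the KO minus NT difference on each day when groups are of equal size. It asks how the members change as cells go through OSKM in general. Most members fell: 104 of 128 (81.2%) were lower on day 6 and 18 (14.1%) higher, and 6 did not pass the test (limma, adjusted p under 0.05 over all genes tested). Of all 14858 genes tested 38.7% were lower and 39.7% higher. The median difference of the members was -1.05, against 0.0 for all genes. A mean of at least 7 over both days favours a difference in genes that are low on either day. On day 6 the mean was below 7 in 20 members, all of them among the 104, and on day 0 in 6 members, all of them among the 18. The 102 members at or above 7 on both days had 84 lower and 12 higher. The share that fell was not particular to them, since 82.0% of the 649 genes lower in KO cells on both days were lower on day 6 as well (median -0.88). The 59 genes with the mirror pattern, low and then high in KO cells, had 54 higher and 2 lower on day 6, and the 289 genes higher in KO cells on both days had 220 higher and 42 lower.

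**Figure D4:**
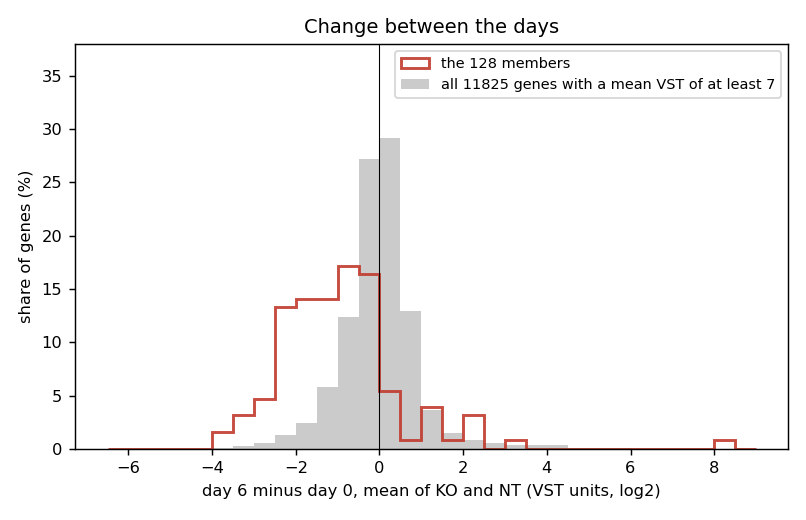
Share of genes (vertical axis, percent) by day 6 minus day 0 difference averaged over KO and NT (horizontal axis, VST units, log2), for the 128 members (red line) and all 11825 genes with a mean VST of at least 7 (grey). The members centre on a median of -1.05 and the grey bars on 0.0, and the isolated member at 8.46 is IGF2.

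The deepest falls were those of MME (-3.91, SE 0.047, limma adjusted p = 6.08e-18), SIGLEC15 (-3.83, SE 0.084), SERPINB7 (-3.28, SE 0.045, limma adjusted p = 2.01e-17) and GDF5 (-3.25, SE 0.073). MME had 748, 664 and 729 in KO and 1531, 1225 and 1373 in NT libraries on day 6, against 18204, 17377 and 18148 in KO and 13288, 14002 and 13911 in NT libraries on day 0. SIGLEC15, a sialic acid-binding receptor known from osteoclasts, had 9.11, 17.1 and 10.4 in KO and 38.4, 24 and 40.2 in NT libraries on day 6, against 1098, 890 and 1044 in KO and 719, 772 and 842 in NT libraries on day 0. SIGLEC15 and GDF5 were below a mean of 7 on day 6 and so entered through day 0 alone. The limit on the mean thus favoured their fall, and no p-value is given for it. Day 6 cells had lost most of MME and SIGLEC15 in each genotype. Every KO library lay below every NT library on that day, as the choice of members requires.

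The 18 members that were higher on day 6 formed a smaller and different set. IGF2, an imprinted fetal growth factor, had 35328, 41283 and 40411 in KO and 50725, 44608 and 48385 in NT libraries on day 6, against 115, 130 and 90.0 in KO and 41.7, 42.5 and 47.4 in NT libraries on day 0 (difference of 8.46, SE 0.06). Its transcripts can share reads with the readthrough gene INS-IGF2. TGM1, the transglutaminase that cross-links the outer layer of skin, had 544, 573 and 539 in KO and 870, 934 and 834 in NT libraries on day 6, against 29.5, 31.0 and 64.4 in KO and 24.3, 14.3 and 28.2 in NT libraries on day 0 (3.29, SE 0.1). IGF2, TGM1, SBSN and DIO2 were below a mean of 7 on day 0 and entered through day 6 alone. The limit on the mean thus favoured their rise, and no p-value is given for it. Next came IGSF3, an immunoglobulin superfamily protein (2.36), the chloride channel protein CLIC3 (2.27), ZNF385A, a zinc finger protein (2.08), C3 (2.03, SE 0.15) and DIO2, which activates thyroid hormone (1.68). SBSN, suprabasin of the outer epidermis, had 130, 146 and 140 in KO and 292, 248 and 268 in NT libraries on day 6, against 68.1, 69.4 and 79.2 in KO and 29.2, 41.5 and 34.8 in NT libraries on day 0. In 14 of the 18 the difference between the days was positive in KO cells too, and smaller than in NT cells. In the other 4 it was negative in KO cells, at -0.23 for SMAD6, -0.09 for ZMIZ1, -0.06 for SORL1 and -0.01 for ITPR3. Summed keratinocyte markers (6 genes, among them KRT14) stood at 6206 to 6521 in KO against 22562 to 23865 in NT libraries on day 6. The largest parts came from the keratins KRT14 (mean of 4056 against 14732), KRT16 (1697 against 5366) and KRT17 (528 against 3013). KRT5 was also lower in KO cells. The low means of TP63 and SFN did not follow and were higher in KO cells (SFN 50.8 against 40.7). Whether the keratin shift bears on TGM1 and SBSN was not tested.

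The order of the group means showed where the crossing arose. In 87 members the order from high to low was KO day 0, NT day 0, NT day 6 and KO day 6, so that KO cells started above NT cells and ended below them while the means of both were lower on day 6. In 18 members NT cells held more on day 6 than on day 0 while KO cells still had the highest mean on day 0 and the lowest on day 6. In 14 members both genotypes held more on day 6. The median day 6 minus day 0 difference was -1.51 in KO cells and -0.53 in NT cells, and a gap of at least 0.5 between them follows from the choice of members. In 27 members the difference between the days was negative in KO cells and positive in NT cells. TFPI2 (-0.71 in KO and 0.68 in NT cells), CRISPLD2, a secreted protein with a role in lung development in mice (-0.67 and 0.66), CHST1, a sulfotransferase (-0.63 and 0.61), PGF (-0.42 and 0.48), SERPINF1, an antiangiogenic serpin (-0.14 and 0.41), and the zinc finger gene ZNF577 (-0.54 and 0.16) were of this kind and were the 6 that did not pass the test of the mean. CRISPLD2 had 382, 412 and 398 in KO against 312, 289 and 271 in NT libraries on day 0, and 212, 245 and 235 in KO against 455, 534 and 484 in NT libraries on day 6.

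**Figure D5:**
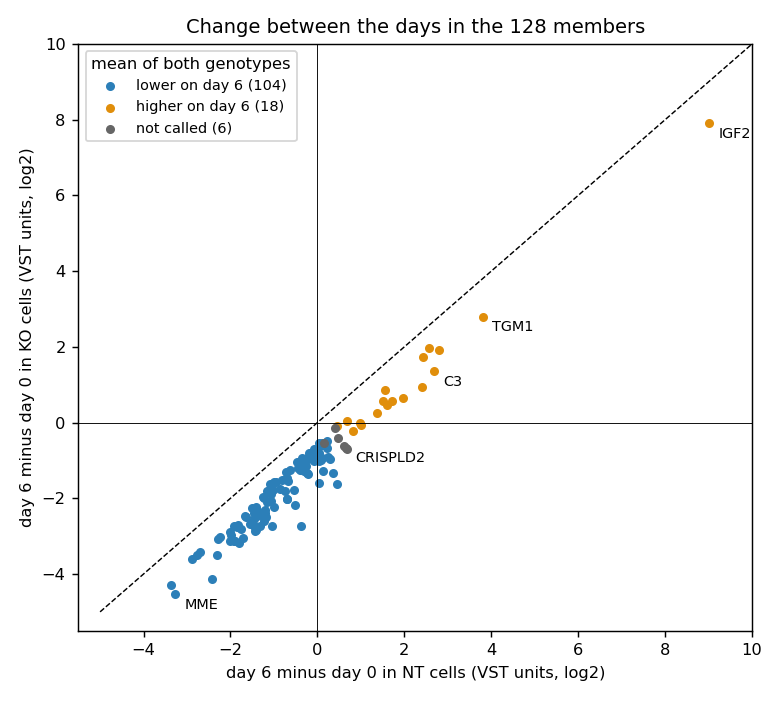
Day 6 minus day 0 difference of each of the 128 members in KO cells (vertical axis) against NT cells (horizontal axis), in VST units (log2), coloured by the test of the mean over genotypes. Each point lies below the dashed line of equal change, as the choice of members requires; 104 members were lower, 18 higher (IGF2 at the top) and 6 not called.

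Chromosome 18 held more members than its size, 8 of 179 genes with a mean of at least 7 (4.47%), while the other chromosomes had 0.0 to 1.68%. They were SERPINB7, SERPINB2, RAB27B, FHOD3, SIGLEC15, LAMA1, ARHGAP28 and COLEC12, spread over both arms, and this was noticed after the members were chosen. The chromosome as a whole was not shifted, with median KO minus NT differences of 0.03 on day 0 and -0.04 on day 6. SERPINB7 (63752935 to 63805376, plus strand) and SERPINB2 (63871692 to 63903890, plus strand) lie 66.3 kb apart in GENCODE release 29 on GRCh38. ARHGAP28 (6729718 to 6915716, plus strand) and LAMA1 (6941744 to 7117814, minus strand) lie 26.0 kb apart. On chromosome 20 GDF5 (35433347 to 35454746, minus strand) and CEP250 (35455164 to 35519280, plus strand) are 418 bases apart on opposite strands. Whether the counting used strand is not stated, so reads near their shared edge cannot be told apart. Reads of KRT81, NBPF14 and the pseudogene HTR7P1 may be shared with near-identical genes, so these 3 members are uncertain.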

How the data were processed

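Messenger RNA was measured in 12 libraries of 4 groups of 3, KO and NT on day 0 and day 6. A Zymo kit yielded the RNA and TruSeq Stranded mRNA reagents the libraries, per the labels' protocols. Per the submitters' processing notes, STAR, Salmon, DESeq2 and GRCh38 were used, in versions not given in the sources used here, and the gene annotation they used is likewise unstated. From these the authors deposited log2-scale VST values for 60660 gene identifiers, with a floor of 4.85 that stands for 0 counts. Raw counts were not used, so no count model was fitted. Estimated normalised counts came from inverting the transformation in its parametric form, which was assumed, and their sums of 18.0 to 23.7 M are normalised totals, not reads.

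Genes with a mean at least 1 above the floor (14858) were fitted with limma 3.58.1 (trend) in R 4.3.3, all 4 groups in 1 fit, two-sided, with Benjamini-Hochberg adjustment over all of them. A gene was called at an adjusted p under 0.05. The SE shown is that of the fit. KO minus NT differences of members carry no test because they chose the members; the non-overlap condition also favours genes with little spread. Other genes of a list are given by count, beside the share over all genes. Symbols came from a table of gene identifiers and coordinates from GENCODE release 29. The members, lists and families were chosen with earlier results of these data known. Genes were named by rule: the 16 members with the largest smaller-of-2 difference, the 4 highest and 4 lowest day changes, up to 4 members a list, and the 4 nearest the limit on each side. Others were named by function after their values were seen. Python 3.11.15 with pandas 2.3.3 made the summaries. The procedure was tested on simulated data. Residuals of libraries with the same replicate number correlated at -0.053 to 0.0634 between groups, so numbers were not treated as pairs. Some genes are not reported here.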

Additional observations from a re-analysis of the deposited data

How the results depend on the processing

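Tests were repeated with every expressed gene, with a stricter limit (2 above the floor), after quantile normalisation or centring of medians, with the floor taken off and a pseudocount of 1 or 10 added, with robust variances, without the trend, on the compared groups alone, with the replicate number as a block, and without each library. Of the alternative values of the 128 members between the days, 2652 kept their direction and call, 13 lost the call, 8 gained it and 15 changed sign. The calls lost were in FAM20C and SLC22A5, those gained in SERPINF1 and ZNF577. The sign changed in CHST1, CRISPLD2, PGF and TFPI2, which were near 0 and not called: without each library CHST1 ran from -0.04 to 0.03, CRISPLD2 from -0.03 to 0.02 and TFPI2 from -0.05 to 0.03. CHST1 was 0.0024 with a pseudocount of 1, PGF -0.09 after quantile normalisation and -0.01 with a common median, and TFPI2 0.02 after quantile normalisation. Without a library in turn, KO against NT gave 1924 to 2691 calls on day 0 and 4520 to 5643 on day 6, and the days differed in 11425 to 11533 genes and in 120 to 123 members. With the replicate block these counts were 2633, 5470, 11673 and 123. The number of members depended on its limits: a difference of at least 0.5 left 21, 0.2 gave 174, a mean of at least 6 gave 153, a mean of at least 8 gave 88, and dropping the condition on overlap gave 181. Quantile normalisation gave 140, of which 113 were among the 128. Leaving out a library gave 131 to 153, of which 116 to 123 were among the 128. With 3 libraries per group, genes near the floor on day 6, such as GDNF and OSR1, are measured by few counts, and differences in VST units understate their folds.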
